A study of Mus musculus with 5 samples.

Results

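The class 3 semaphorins are secreted signalling proteins, and the neuropilins Nrp1 and Nrp2 are the cell surface proteins that bind them. The 8 genes Sema3a, Sema3b, Sema3c, Sema3d, Sema3e, Sema3f, Nrp1 and Nrp2 were followed in MLE-15 cells after an shRNA against Grhl2. They were chosen by symbol: each had 1 probe set that the platform annotation pairs with that symbol alone, so 8 probe sets of the 21640 with a single symbol, and 8 genes of 19937, were used. MLE-15 cells grew out of lung tumours of mice whose SV40 large T antigen transgene is driven by the human SP-C promoter. All 5 arrays therefore came from T antigen-transformed cells. The 3 Grhl2 shRNA arrays came from cells given a lentivirus with a hairpin against Grhl2 and a GFP reporter. The 2 control arrays came from cells given the same kind of vector with a non-silencing hairpin. Each array was a separate transduction, infected for 16 h at a multiplicity of 50 with polybrene and kept in puromycin for 6 days. Only 1 hairpin against Grhl2 was used, and every transduction was of the same cell line. The series asks which genes depend on Grhl2, a Grainyhead transcription factor of epithelia.

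Class 3 semaphorins were first known as cues that make growing axons turn away. A neuropilin holds the ligand and a plexin, most often of the A class, passes the signal into the cell, where the cytoskeleton and adhesion change. Sema3a acts mainly through Nrp1 and Sema3f mainly through Nrp2, whereas Sema3c can use either, and Sema3e can bind Plxnd1 without a neuropilin. Neuropilins are also co-receptors for VEGF. In the developing lung these ligands and receptors are made by epithelium, mesenchyme and vessels, and Sema3a is known to act on airway branching.

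Values are log2 expression levels, so a difference of 1 is a doubling. Median log2 values of all probe sets ran from 5.29 to 5.32 over the 5 arrays. The targeted gene, Grhl2, had log2 levels of 7.43, 7.43 and 7.60 in Grhl2 shRNA cells, against 7.77 and 7.68 in control cells. All 3 Grhl2 shRNA values lay below both control values. The log2 fold change of −0.24 (SE 0.065) had a limma adjusted p of 0.082 and did not pass the threshold of 0.05. With 1 array left out the log2 fold change ran from −0.29 to −0.19, and it passed without Grhl2 shRNA replicate 3 (adjusted p = 0.047) but in none of the other 4 fits (0.170 to 0.320). Of 14 lung epithelial markers, 12 had a mean level at or above the filter on low values, a log2 mean of 4.22, and Lamp3 and Slc34a2 did not. The mean level over all 14 ran from 8.81 to 8.93 on the Grhl2 shRNA arrays and from 8.89 to 8.93 on the control arrays. The surfactant gene Sftpd fell by 0.33 and the surfactant-processing protease gene Napsa rose by 0.36 (limma adjusted p = 0.021 and 0.010). The other 10 tested did not pass, where 6.38% of all genes tested passed. Neither call held without control replicate 1 or 2 (Sftpd 0.097 and 0.134, Napsa 0.060 and 0.084), and that of Sftpd also not without Grhl2 shRNA replicate 2 (0.063).

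A pair of ligand genes and both neuropilins passed the test. Sema3a, Sema3c and Nrp2 fell, and Nrp1 rose, in the Grhl2 shRNA cells. That is 4 of the 7 members that passed the filter, 3 lower and 1 higher, where 6.38% of the 14979 genes tested were called, 3.52% lower and 2.86% higher. The arrays of the groups were apart in all 7. In 6 members every Grhl2 shRNA array was below both controls, which held for 20.5% of all genes, and in Nrp1 every one was above, which held for 21.0%. The median log2 fold change of the 7 was −0.27, against 0.002 over all genes tested. With 1 Grhl2 shRNA array left out, the count of members called was 2, 2 and 3 without replicates 1, 2 and 3. In these fits 3.02%, 1.93% and 3.29% of all genes tested were called. Without control replicate 1 or 2, which leaves 1 control array, the median log2 fold change of the 7 members was −0.31 and −0.20. In the whole culture, fewer cells that express a gene and less RNA per cell cannot be told apart.

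**Figure D1:**
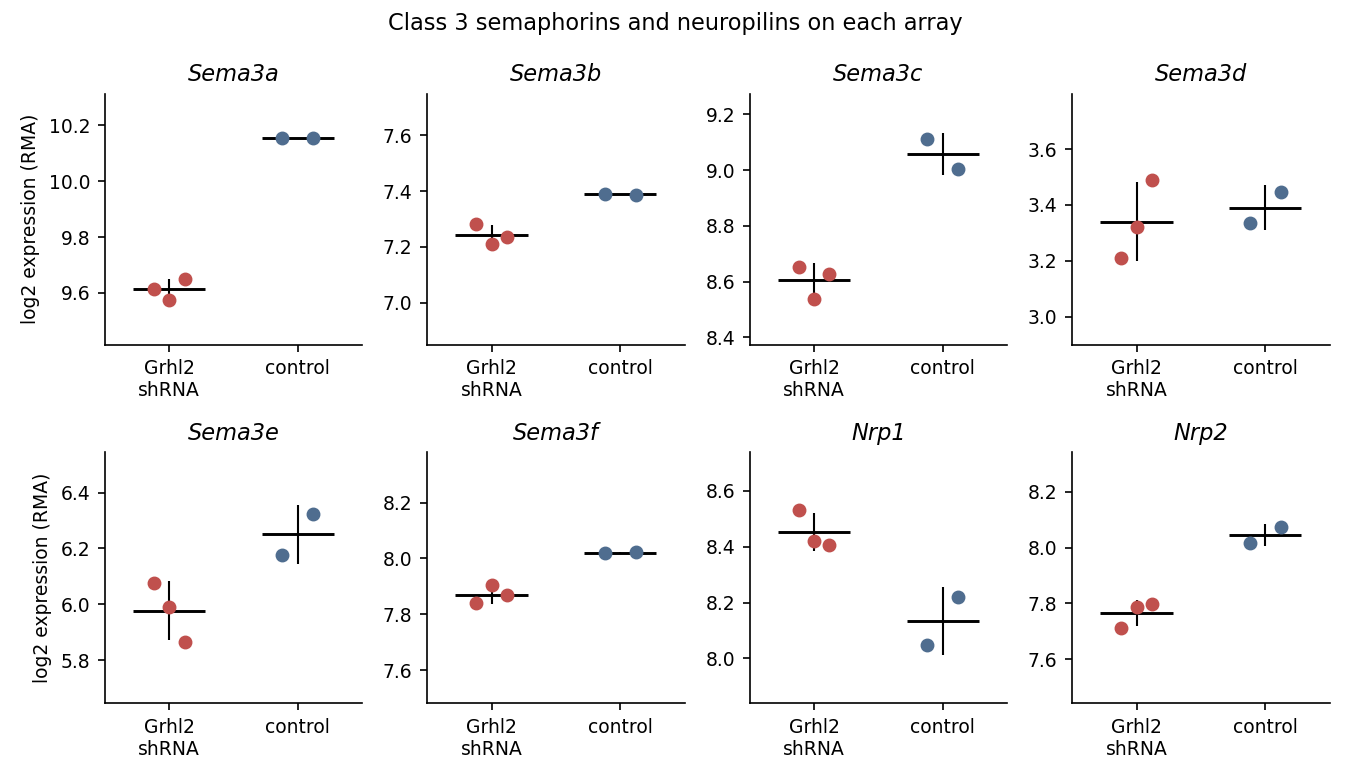
Log2 expression (RMA) of the 8 genes on each array, with Grhl2 shRNA arrays in red (n = 3) and control arrays in blue (n = 2). Horizontal lines are group means, vertical lines are ± 1 SD, and every panel spans the same log2 range; the groups are apart in 7 panels and overlap for Sema3d.

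Sema3a, the founding repulsive ligand of the class, changed most. Its log2 levels were 9.62, 9.57 and 9.65 in Grhl2 shRNA cells, against 10.15 and 10.16 in control cells. The gap between the lowest control and the highest Grhl2 shRNA array, 0.50, was several times the spread of 0.075 within the Grhl2 shRNA group. Means were 9.61 ± 0.038 (SD, n = 3) in Grhl2 shRNA cells and 10.15 ± 0.0013 (SD, n = 2) in control cells. The log2 fold change was −0.54 (SE 0.043, limma adjusted p = 0.0037), so 68.7% of the control level was left (95% confidence interval 64.0 to 73.7%). Of the 14979 genes, 48 had a more negative value. Sema3a was the only member called whichever array was left out, with limma adjusted p between 0.011 and 0.038.

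Sema3c, a ligand that in other systems often attracts cells rather than repelling them, fell by 0.45. Its log2 levels were 8.65, 8.54 and 8.63 in Grhl2 shRNA cells, against 9.11 and 9.003 in control cells. The highest Grhl2 shRNA array was 0.35 below the lower control, and the arrays spread over 0.12 in the Grhl2 shRNA group and 0.11 in the control group. The fit gave an SE of 0.056 and a limma adjusted p of 0.0097, with 73.2% of the control signal left (95% confidence interval 66.8 to 80.1%). The call depended on having both controls: with control replicate 1 left out the adjusted p was 0.068, and with control replicate 2 left out it was 0.053.

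The remaining ligands that passed the filter had smaller values of the same sign, and none passed the test. Sema3e, the ligand of Plxnd1, had log2 levels of 6.08, 5.99 and 5.87 in Grhl2 shRNA cells and 6.18 and 6.32 in control cells. Its groups were 0.10 apart, less than the spread of 0.21 among the Grhl2 shRNA arrays, and the log2 fold change was −0.27 (SE 0.074, limma adjusted p = 0.078). Sema3f, the main ligand of Nrp2, stood at 7.84, 7.90 and 7.87 in Grhl2 shRNA cells and at 8.02 and 8.02 in control cells, a log2 fold change of −0.15 (SE 0.042, limma adjusted p = 0.084). Sema3b, which like Sema3f is known as a growth suppressor gene in human lung cancer, stood at 7.28, 7.21 and 7.24 in Grhl2 shRNA cells and at 7.39 and 7.39 in control cells. Its log2 fold change was −0.14 (SE 0.043, limma adjusted p = 0.095). The arrays of each group lay close together for Sema3b and Sema3f, but the distance between groups was about 0.11. The 95% confidence intervals for the signal left were 73.3 to 93.4% for Sema3e, 84.1 to 96.5% for Sema3f and 84.4 to 97.0% for Sema3b. Each of these intervals is for a single gene and is not adjusted for the number of genes.

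Sema3d was below the filter and was not tested. Its log2 levels of 3.21, 3.32 and 3.49 in Grhl2 shRNA cells and 3.33 and 3.45 in control cells overlapped. Its mean lay under the 25th percentile of the probe sets, and no change in Sema3d could be read from it.

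The neuropilins moved in opposite directions. Nrp1 had log2 levels of 8.53, 8.42 and 8.40 in Grhl2 shRNA cells and 8.05 and 8.22 in control cells. Every Grhl2 shRNA array was above both controls, and the control arrays were 0.17 apart. Nrp1 rose by 0.32 (SE 0.066, limma adjusted p = 0.039), 1.25-fold higher (95% confidence interval 112 to 139% of the control level). Nrp2 had log2 levels of 7.71, 7.79 and 7.80 in Grhl2 shRNA cells and 8.02 and 8.07 in control cells, with 0.22 between the groups. It fell by 0.28 (SE 0.047, limma adjusted p = 0.022) to 82.4% of the control signal (95% confidence interval 76.3 to 89.0%). The call of Nrp1 rested on the full set of arrays, and that of Nrp2 was lost in most fits with 1 array left out. For Nrp1 the adjusted p was 0.087, 0.096 and 0.068 without Grhl2 shRNA replicates 1, 2 and 3, and 0.178 and 0.080 without control replicates 1 and 2. Nrp2 passed without Grhl2 shRNA replicate 3 (adjusted p = 0.047), and its adjusted p was 0.054 and 0.064 without Grhl2 shRNA replicates 1 and 2, and 0.090 and 0.137 without control replicates 1 and 2.

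The shift between the co-receptors was also taken within each array. The Nrp1 log2 value minus that of Nrp2 was 0.82, 0.63 and 0.61 in Grhl2 shRNA cells, against 0.03 and 0.15 in control cells. The size of this number on 1 array does not compare the amounts of the RNAs, because probe sets differ in brightness, but its change between groups can be read. It was 0.60 higher in Grhl2 shRNA cells, a 1.51-fold shift of the ratio toward Nrp1. An exact two-sided permutation test gave p = 0.1, the smallest that 3 against 2 arrays allow. Nrp1 and Nrp2 each had this smallest p with opposite signs, so the p of their difference was fixed in advance. It adds nothing to the separate results for Nrp1 and Nrp2. With 1 array left out the difference ran from 0.53 to 0.65. Taken singly, each of the 7 members also had an exact two-sided permutation p of 0.1, and Grhl2 had 0.2. A p of 0.1 needs groups that do not overlap, which held for 20.5% (lower) and 21.0% (higher) of all genes tested.

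**Figure D2:**
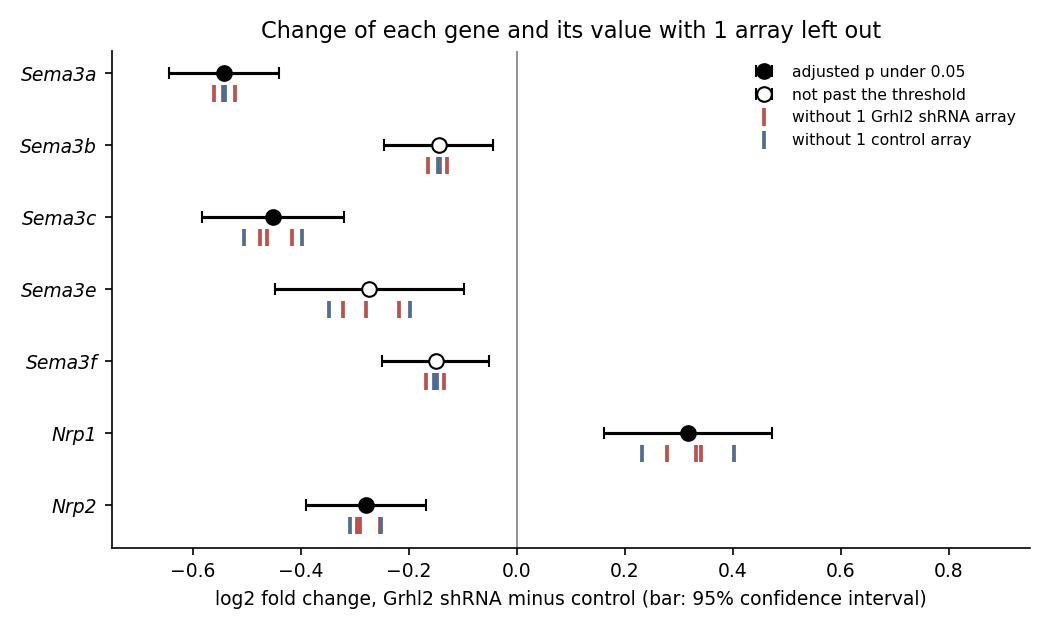
Log2 fold change (Grhl2 shRNA minus control) of the 7 tested members with its 95% confidence interval, filled where the adjusted p was under 0.05. Ticks under each gene give the value with 1 Grhl2 shRNA array (red) or 1 control array (blue) left out; the ticks of each gene stay on the side of 0 of its own value, and those of Nrp1 and Sema3e spread most.

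The starts of the 4 genes that passed the test are shown because the knockdown targets a DNA-binding factor and the genes had moved. The RefSeq promoter table of GRCm38.p6 gives 300 bases per start, 250 before and 50 after it, and holds 6 of the 8 members, all but Sema3b and Sema3f. Capitals mark CG dinucleotides, all sequences run 5′ to 3′, and all lie on the plus strand, Sema3a at chr5:13396534-13396833, Sema3c at chr5:17574566-17574865, Nrp1 at chr8:128358823-128359122 and Nrp2 at chr1:62703067-62703366.
Sema3a: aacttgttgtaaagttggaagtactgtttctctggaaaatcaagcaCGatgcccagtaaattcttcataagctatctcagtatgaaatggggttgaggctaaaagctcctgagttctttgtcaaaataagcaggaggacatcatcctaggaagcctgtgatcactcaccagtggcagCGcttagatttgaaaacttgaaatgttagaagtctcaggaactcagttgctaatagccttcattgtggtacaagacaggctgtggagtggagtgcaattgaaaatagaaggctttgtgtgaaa
Sema3c: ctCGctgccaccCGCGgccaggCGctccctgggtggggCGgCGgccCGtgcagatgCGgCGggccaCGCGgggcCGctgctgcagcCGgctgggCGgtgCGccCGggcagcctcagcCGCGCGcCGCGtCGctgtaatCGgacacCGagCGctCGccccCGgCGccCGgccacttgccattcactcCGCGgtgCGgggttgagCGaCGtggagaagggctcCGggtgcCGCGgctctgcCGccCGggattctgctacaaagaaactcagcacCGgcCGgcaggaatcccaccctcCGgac
Nrp1: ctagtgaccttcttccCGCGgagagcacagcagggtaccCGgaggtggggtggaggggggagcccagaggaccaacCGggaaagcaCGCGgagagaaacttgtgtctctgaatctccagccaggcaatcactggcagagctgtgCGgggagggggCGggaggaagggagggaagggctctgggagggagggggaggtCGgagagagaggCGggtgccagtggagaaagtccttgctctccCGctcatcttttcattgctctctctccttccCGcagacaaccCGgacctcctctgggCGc
Nrp2: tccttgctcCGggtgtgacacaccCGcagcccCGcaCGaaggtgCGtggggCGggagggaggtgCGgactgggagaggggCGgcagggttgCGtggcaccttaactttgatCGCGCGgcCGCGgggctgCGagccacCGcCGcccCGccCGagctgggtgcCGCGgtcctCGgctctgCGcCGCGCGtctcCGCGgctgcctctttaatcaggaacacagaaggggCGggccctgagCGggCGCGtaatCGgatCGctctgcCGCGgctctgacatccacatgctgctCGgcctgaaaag

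The starts of the pair of ligand genes that fell were unlike each other in base composition. The Sema3a window held 41.3% G and C with 2 CG dinucleotides, and the Sema3c window 75.7% with 42. Nrp2 (70.7%, 37 CG) lay nearer to Sema3c, and Nrp1 was between (64.0%, 14 CG). The median over the 32851 promoters of the table was 52.7% G and C with 7 CG dinucleotides. The Grainyhead consensus was searched on both strands as AACNGGTT, which also takes in AACCGGTT. It was in none of the 6 member windows and in 2.09% of all promoters, and AACCGGTT alone was in none of them and in 0.146% of all. The shorter core CNGGTT was in 39.4% of all promoters and in 1 member window, that of Nrp1, at 2 places. The first, in capitals with 12 bases on each side, starts at position −177 and the second at 29, where the gene start is 1 and the base before it is −1.
Nrp1 upstream match: gcccagaggaccAACCGGgaaagcacgcgg
Nrp1 downstream match: cttcccgcagacAACCCGgacctcctctgg
Both are matches of the reverse complement AACCNG. A match of these letters is a description and not a binding site, and their absence covers these windows only.

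Plexins are the receptors that carry semaphorin signals into the cell. Of 9 plexin genes tested, 4 fell, none rose and 5 did not pass, with a median log2 fold change of −0.17 against 0.002 over all genes tested. Over all genes tested, 3.52% were called lower and 2.86% higher. Of the A-class plexins, the partners of neuropilins, Plxna1, Plxna2 and Plxna4 were among those that fell and Plxna3 was not. Plxna2 had log2 levels of 7.58, 7.58 and 7.60 in Grhl2 shRNA cells and 7.83 and 7.82 in control cells, a fall of 0.24 (SE 0.039, limma adjusted p = 0.020). The Grhl2 shRNA arrays lay below both controls for 6 of the 9 plexins, the 4 called among them. The same held for 20.5% of all genes tested. Plxna4 fell by 0.23 (adjusted p = 0.032) and Plxna1 by 0.21 (adjusted p = 0.043). Plxnb1, a receptor of class 4 semaphorins, fell by 0.26 (adjusted p = 0.020). By contrast Plxna3 stood at −0.01 (adjusted p = 0.94) and Plxnd1, the Sema3e receptor, at 0.01 (adjusted p = 0.92). The count of plexins called was 2 without Grhl2 shRNA replicate 3, Plxna2 and Plxnb1, and 0 without replicate 1 or 2. Of all genes tested, 3.29%, 3.02% and 1.93% were called without replicates 3, 1 and 2. Without control replicate 1 or 2, which leaves 1 control array, the plexin median was −0.19 and −0.14.

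Inside the cell, 2 of 29 effector genes fell, none rose and 27 did not pass, with a median of −0.04. Over all genes tested, 3.52% were called lower. Dpysl2, which encodes the collapsin response mediator CRMP2, named for its part in the growth cone's response to Sema3a, fell most. Its log2 levels were 10.57, 10.53 and 10.56 in Grhl2 shRNA cells and 10.94 and 10.92 in control cells, and it fell by 0.38 (SE 0.040, limma adjusted p = 0.0060). The distance between the groups was far larger than the spread within either. Its adjusted p was 0.056 and 0.054 without control replicates 1 and 2. Trio, an exchange factor for small GTPases, fell by 0.20 (limma adjusted p = 0.049), and no call of Trio was left with any 1 array out (adjusted p 0.078 to 0.218). Pak1 had no probe set of its own here.

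Most other genes around the pathway did not pass. Of 14 other semaphorins, counting the class 3 gene Sema3g, only Sema6d, a membrane-bound ligand of A-class plexins, was called. The list median was 0.008, and 6.38% of all genes tested were called. Sema6d fell by 0.37 (limma adjusted p = 0.011), with adjusted p of 0.077 and 0.076 without control replicates 1 and 2. Sema3g, the class 3 ligand best known from vessels, had log2 levels of 5.47, 5.56 and 5.49 in Grhl2 shRNA cells and 5.39 and 5.40 in control cells. That is the opposite sign to the 5 ligand members tested, at 0.11 (SE 0.045, limma adjusted p = 0.196). Of 8 tested adhesion molecules and other partners of neuropilins, none was called by limma, and 1 had an unadjusted p under 0.05, as had 23.1% of all genes tested. L1cam, an adhesion molecule that joins Nrp1 in the Sema3a receptor, had the largest value, −0.20 (adjusted p = 0.095).

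None of 6 VEGF family genes was called by limma (1 with an unadjusted p under 0.05), and Vegfa, the ligand that Nrp1 presents to its receptors, had the largest value, 0.15 (adjusted p = 0.16). Vegfc and Kdr were below the filter. None of 9 proteases that cut semaphorins or their receptors was called by limma either (3 with an unadjusted p under 0.05). Adam10, which sheds membrane proteins, was at −0.16 (adjusted p = 0.079) and Furin, which cleaves class 3 semaphorins, at −0.09 (adjusted p = 0.26). Of 18 netrins, Slits, repulsive guidance molecules and their receptors, Ntn5 fell by 0.30 (limma adjusted p = 0.019) and 17 did not pass, with a list median of 0.010. Over all genes tested, 6.38% were called and 23.1% had an unadjusted p under 0.05. Without Grhl2 shRNA replicate 2 or control replicates 1 and 2 the adjusted p of Ntn5 was 0.051, 0.111 and 0.102.

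**Figure D3:**
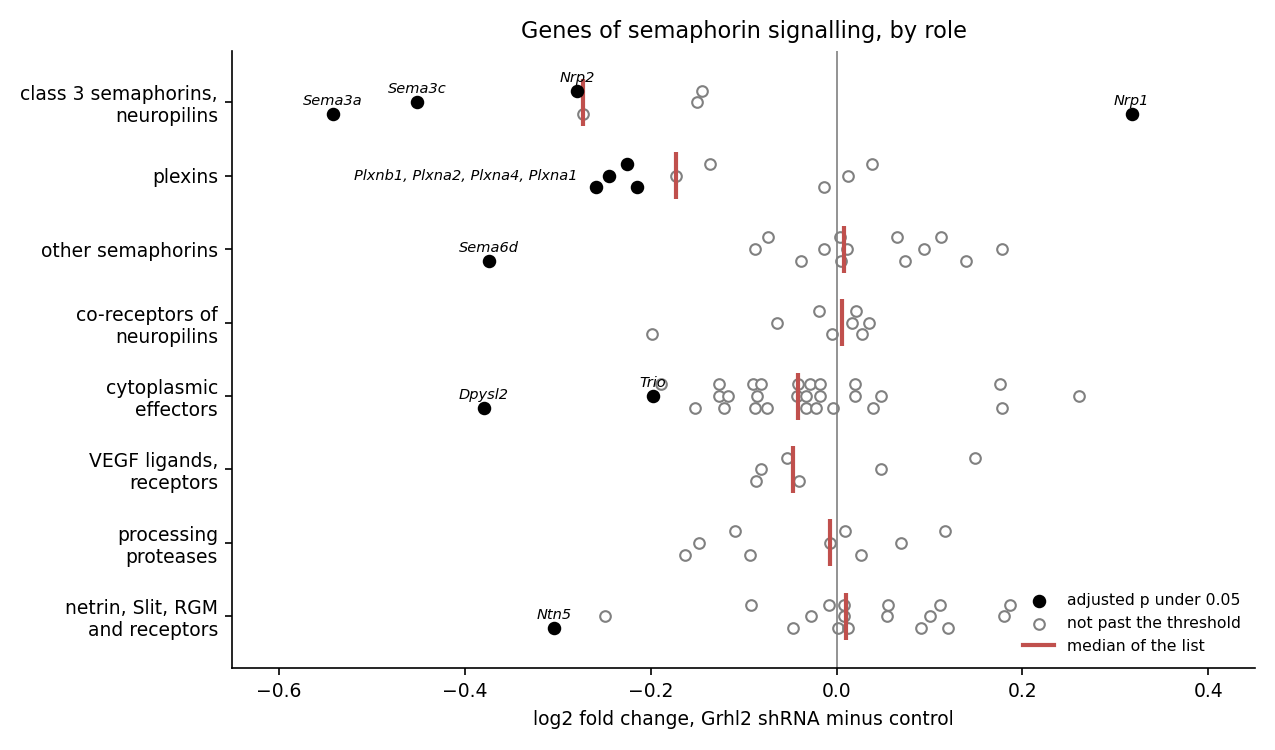
Log2 fold change (Grhl2 shRNA minus control) of each tested gene of the 8 lists; filled points had an adjusted p under 0.05 and are named, red bars are list medians. The medians of the members (−0.27) and of the plexins (−0.17) lie farthest from 0, and Nrp1 is the only filled point above 0.

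Several members share a stretch of chromosome, so the nearest tested gene on each side was set beside them; it is not always the adjacent gene, since genes below the filter or with no probe set of their own are passed over. By the RefSeq table of GRCm38.p6, Sema3a, Sema3c, Sema3d and Sema3e lie on chromosome 5, Sema3b and Sema3f on chromosome 9, Nrp1 on chromosome 8 and Nrp2 on chromosome 1. Sema3d and Sema3e flank Sema3a among the members. Beyond them, Elapor2, with 5 protein-coding genes between it and Sema3d, was at 0.11 (limma adjusted p = 0.37), and the presynaptic scaffold gene Pclo, the adjacent protein-coding gene beyond Sema3e, was at 0.01 (adjusted p = 0.94). On one side of Sema3c, with 3 protein-coding genes between, the growth factor gene Hgf was at 0.46 (limma adjusted p = 0.064). On the other side the adjacent protein-coding gene, the fatty acid receptor gene Cd36, was at 0.31 (limma adjusted p = 0.059). Both have the opposite sign to Sema3c, and neither passed. Hgf had log2 levels of 5.18, 5.19 and 5.56 in Grhl2 shRNA cells and 4.90 and 4.81 in control cells.

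The neighbours of the other members had small values. Beside Nrp1, the polarity gene Pard3 was at 0.0009 (limma adjusted p = 0.99) and the integrin gene Itgb1 at 0.02 (adjusted p = 0.80). Beside Nrp2, Pard3b was at −0.04 (adjusted p = 0.84) and Ino80d at 0.04 (adjusted p = 0.78). Lsmem2 (−0.08) and the G protein gene Gnai2 (0.07) flank Sema3b, and the transducin gene Gnat1 (−0.10) and the splicing regulator gene Rbm5 (−0.004) flank Sema3f. None of these 4 passed (limma adjusted p 0.39, 0.45, 0.54 and 0.97). Of the 12 nearest tested genes that are not members, none was called by limma, and 2 had an unadjusted p under 0.05. The shares over all genes tested were 6.38% called and 23.1% with an unadjusted p under 0.05.

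**Figure D4:**
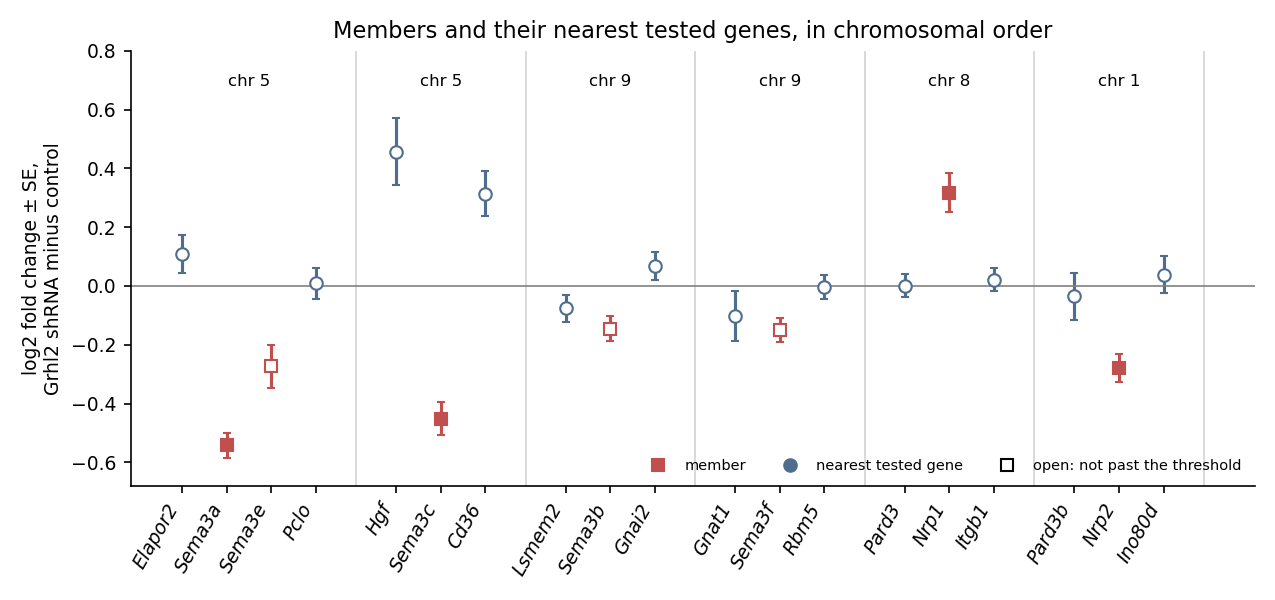
Log2 fold change ± SE (Grhl2 shRNA minus control) of members (red squares) and of the nearest tested gene on each side (blue circles), in chromosomal order within each group; open symbols did not pass the threshold. Sema3a, Sema3c, Nrp1 and Nrp2 are filled, and Hgf and Cd36 lie above 0 on either side of Sema3c.

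The genes whose profile over the 5 arrays was nearest to that of Sema3a were B3gnt5, Ppp2r2b and Sgpp2, by the root mean square difference of log2 values centred on each gene's mean. B3gnt5, a glycosyltransferase that starts the lacto-series of glycolipids, differed by 0.026 and fell by 0.51. Ppp2r2b, a regulatory subunit of protein phosphatase 2A, differed by 0.029 and fell by 0.49, and Sgpp2, a sphingosine-1-phosphate phosphatase, by 0.037 and fell by 0.55. Their limma adjusted p-values were 0.0036, 0.0048 and 0.0048, and Ppp2r2b missed the threshold (0.0502) without control replicate 2. Nearest to Nrp1 were Tex14, Rmc1 and Chchd1, at 0.027, 0.028 and 0.033. Rmc1, part of the complex that activates Rab7, rose by 0.30 (adjusted p = 0.026) and Chchd1, a mitochondrial ribosome protein gene, by 0.32 (adjusted p = 0.023), while Tex14 was at 0.27 (adjusted p = 0.061). Rmc1 passed only without Grhl2 shRNA replicate 3 (adjusted p 0.046, otherwise 0.066 to 0.135) and Chchd1 with no array left out (adjusted p 0.053 to 0.111). These profiles were matched on the same 5 arrays, so nearness includes the difference between groups.

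Markers of other cells that use semaphorins were measured beside the members. Over all genes tested, 6.38% were called. Of 8 endothelial markers, 6 were tested, Kdr and Emcn were below the filter, and Tek, the angiopoietin receptor, rose by 0.91 (limma adjusted p = 0.0066, and 0.057 without control replicate 2). The defining marker Pecam1 was at −0.15 (adjusted p = 0.37). The mean level over the endothelial list was 5.36 to 5.41 on the Grhl2 shRNA arrays and 5.30 to 5.35 on the control arrays. Of 8 fibroblast markers, 7 were tested, Lum was below the filter, and Dcn, the matrix proteoglycan decorin, rose by 0.70 (adjusted p = 0.036, and 0.066 to 0.180 in the 4 fits without Grhl2 shRNA replicates 2 or 3 or either control). Col1a1 and Col1a2 were at −0.01 and −0.0002, and the mean level was 5.27 to 5.35 in Grhl2 shRNA cells and 5.25 to 5.26 in control cells.

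Of 7 leukocyte markers, Ptprc, Adgre1 and Cd79a were below the filter and 1 of the 4 tested, Tyrobp, rose by 0.28 (limma adjusted p = 0.020, and 0.053, 0.069, 0.099 and 0.125 without Grhl2 shRNA replicates 1 and 2 and control replicates 1 and 2). The leukocyte mean level was 4.42 to 4.48 on the Grhl2 shRNA arrays and 4.43 to 4.44 on the control arrays. The 6 neuronal and Schwann cell markers tested had values below 0 and were not called by limma (1 with an unadjusted p under 0.05). The largest value was that of Elavl4, an RNA-binding protein gene of neurons, at −0.16 (adjusted p = 0.092). The mean level over the 6 was 4.66 to 4.72 on the Grhl2 shRNA arrays and 4.77 to 4.79 on the control arrays. The list means of the groups did not overlap for endothelial, fibroblast and neuronal markers. Single genes did not overlap in 20.5% (lower) and 21.0% (higher) of all genes tested. Of all genes tested, 6.38% were called and 23.1% had an unadjusted p under 0.05. The lowest Grhl2 shRNA and highest control means were 5.359 and 5.355 for the endothelial list, and 5.268 and 5.264 for the fibroblast list. Tek and Dcn were the only tested genes of the endothelial and fibroblast lists above 0: 5 of 6 endothelial markers (median −0.08) and 6 of 7 fibroblast markers (median −0.01) were below it. The part of these markers in the members' values was not tested.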

How the data were processed

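RNA of 5 MLE-15 cultures was hybridised to whole-transcript arrays, 1 biotin-labelled sample each. The authors deposited log2 expression values per probe set, and the submitters' processing notes name RMA and Affymetrix Expression Console. RMA corrects background, equalises array distributions and summarises probes. Their versions and any filter were not given in the sources used here, and the log base follows from RMA and the range of the values.

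Of 34760 probe sets, 21640 had 1 symbol, 1321 several and 11799 none listed. By Entrez ID, 21553 matched RefSeq (GRCm38.p6), with 0 symbols changed. Probe sets with a mean log2 value under 4.22 (25th percentile) were left out, and the brightest probe set stood for each gene, which gave 14979 genes. The test was limma 3.58.1 (R 4.3.3), lmFit then eBayes on the group alone, two-sided, with Benjamini-Hochberg adjustment over all genes and a threshold of 0.05. Confidence intervals are 95%, on 7.02 moderated degrees of freedom (3 residual and 4.02 from the prior), and having 5 arrays limits the precision. The fit was tested on simulated data. Transductions were the replicates.

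Named are all members, Grhl2, up to 4 called genes of each list or its largest value, the nearest tested neighbours and the 3 nearest profiles. Other genes named (Plxna3, Plxnd1, Sema3g, Furin, Pecam1, Col1a1, Col1a2, and genes below the filter or without a probe set) were chosen for their role after their values were seen. Members, lists and alternatives were chosen with earlier results of these data known. A planned comparison of the proteins was not made, because no protein table was given.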

Additional observations from a re-analysis of the deposited data

How the results depend on the processing

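Sema3a, Sema3c, Nrp1 and Nrp2 kept their sign in every alternative run, and the same holds for Sema3b, Sema3e and Sema3f. The calls changed with the variance model and with the set of features fitted. A change of that set altered the variance prior and the number of tests together, and their separate parts were not tested. With limma on all 34760 probe sets together, 0 members and 0 probe sets passed, although 7 members and 4515 probe sets (13.0%) had an unadjusted p under 0.05. The adjusted p was then 0.101 for Sema3a, 0.139 for Sema3c, 0.227 for Nrp1 and 0.182 for Nrp2. With no moderation of the variance (an ordinary linear model), 0 members and 9 genes passed, 6 members and 2870 genes (19.2%) had an unadjusted p under 0.05, against 7 members and 3456 genes (23.1%) with moderation, and the same 4 adjusted p-values were 0.0926, 0.131, 0.214 and 0.138. With no filter on low values 418 genes (2.10%) passed and Nrp1 did not (0.0730). With the filter at the 50th percentile 1708 genes (17.2% of those then tested) and 6 members passed. Sema3b and Sema3f were among these members, and Sema3e was not tested. With a trended robust prior 2034 genes (13.6%) and 6 members passed, Sema3e and Sema3f among them. At a threshold of 0.1, 7 members and 1851 genes (12.4%) passed. The main fit called 6.38% of genes. Repeated quantile normalization, a common median, centring, array weights and the mean of a gene's probe sets left the same 4 members called.

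Deviations from group means of same-numbered arrays correlated at 0.057 and 0.019 for numbers 1 and 2. The deviations of 2 controls mirror each other, so this check cannot decide whether same-numbered arrays were handled together. With the replicate block, 2 members (Sema3a and Sema3c) and 172 genes passed, with limma adjusted p of 0.106 for Nrp1 and 0.0678 for Nrp2. The count of plexins called was 0 with the replicate block and 0 with no moderation of the variance. With 1 array left out, 1 to 3 members and 67 to 493 genes passed, and the adjusted p ran from 0.0108 to 0.0383 for Sema3a, 0.0257 to 0.0680 for Sema3c, 0.0677 to 0.178 for Nrp1 and 0.0471 to 0.137 for Nrp2. Without a control array the other control is alone, and the fit takes its spread from the Grhl2 shRNA arrays. Why calls changed under the variance models was not tested.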
